A study of Mus musculus with 4 samples.

Results

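Small leucine-rich proteoglycans are secreted proteins of the extracellular matrix, and versican is a large matrix proteoglycan that is often found with them. The genes described here were the rows of the deposited table whose symbol was Bgn, Dcn, Lum, Prelp, Fmod, Ogn, Aspn, Podn or Vcan, which gave 9 of the 55401 genes listed, each present once. They comprised 8 small leucine-rich proteoglycan genes and versican. RNA was sequenced from E14 cells, a line of mouse embryonic stem cells (mESCs), as 2 wild-type (WT) libraries and 2 libraries of cells without functional Haspin, the kinase that phosphorylates histone H3 at threonine 3 in mitosis (Haspin-KO). All cells were grown in medium with serum, LIF and the 2i inhibitors, without further treatment. The Haspin-KO cells carried CRISPR/Cas9 edits made with a pair of guides against the Haspin coding sequence and were picked as single clones that stained negative for the phosphorylated histone, and the labels do not give the clone behind each library. The study's methods passaged the cells on a feeder layer of mouse embryonic fibroblasts treated with mitomycin C and used gelatin-coated dishes for assays, and which surface the sequenced cells came from is not given in the sources used here. Nothing in the labels says that libraries of a group came from separate cultures, so the p-values measure the spread between these libraries, which may be technical.

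The small leucine-rich proteoglycans share a core of leucine-rich repeats that binds collagen, and most carry chondroitin, dermatan or keratan sulphate chains. They space and organise collagen fibrils in connective tissue, and several of them also bind growth factors such as TGF-beta. Versican carries many chondroitin sulphate chains, binds hyaluronan through its globular head, and is cleaved by ADAMTS proteases when loose embryonic matrix is remodelled. Fibroblasts and other mesenchymal cells are the best known source of both kinds of protein, whereas undifferentiated mESCs are epithelial-like cells that are not known for a fibrillar collagen matrix.

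Library totals were 21834847 and 17452307 reads in WT and 14207828 and 14436750 reads in Haspin-KO. A count of 3 reads was taken as the floor of a library, which corresponded to 0.137 to 0.211 CPM (counts scaled by library total) and covers counting error only. Haspin itself (ENSMUSG00000050107) had 875 and 619 reads in WT and 149 and 209 in Haspin-KO, a log2 fold change of -1.60 ± 0.16 (SE, adjusted p = 0.00154, edgeR), so its reads followed the labels without falling to the floor.

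Biglycan and PRELP were lower in Haspin-KO, fibromodulin was read in WT alone, and versican was well read in both groups. Genes were called where the adjusted p was under 0.05 and the groups differed by more than 2-fold. Of the 9 genes, 5 had enough reads for edgeR to test them, and 2 of these, Bgn and Prelp, were called lower in Haspin-KO, against 0.501% of the 15580 genes tested. No member was called higher, a call made for 0.327% of the genes tested, and at an unadjusted p under 0.05 with the same fold minimum edgeR added Ogn alone, for 3 of 5 tested members lower against 1.19% of the genes tested and none higher against 1.71%. Prelp (1 and 0 reads in Haspin-KO) and Ogn (4 and 5) had enough reads only in WT. Such genes enter the test through the group where they are high and could hardly be called higher. The counts of members lower are therefore no independent support for a fall. This also holds for called genes of the lists below with few reads in Haspin-KO. The other members, Dcn, Lum, Fmod and Aspn, had too few reads to be tested and are given by their counts. In CPM, both Haspin-KO libraries lay below both WT libraries for 6 of the 9 members (Bgn, Dcn, Aspn, Prelp, Fmod and Ogn) and above them for Vcan. Dcn, Aspn and Fmod were not among the genes tested, and Dcn was near the floor in all libraries. Of the 5 tested members 3 lay wholly below and 1 wholly above, whereas among all genes tested 26.9% lay wholly below and 25.3% wholly above. In bulk RNA, fewer cells of a type and less RNA per cell cannot be told apart.

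Among the class I genes, biglycan (Bgn, ENSMUSG00000031375, chrX:73483602-73495933, plus strand, mm10) encodes a collagen-binding proteoglycan that also binds TGF-beta family ligands. Bgn had 621 and 312 reads in WT and 18 and 22 in Haspin-KO. In CPM this was 28.4 and 18.0 in WT and 1.25 and 1.54 in Haspin-KO, with means of 23.2 ± 7.37 and 1.40 ± 0.203 (SD, n = 2 each). The Haspin-KO libraries lay close together and far under both WT libraries, although WT replicate 1 was itself 1.58 times WT replicate 2. The fitted log2 fold change was -4.05 ± 0.29 (SE, edgeR adjusted p = 0.000165), which put WT 16.6-fold above Haspin-KO.

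Asporin (Aspn, ENSMUSG00000021388, chr13:49544443-49567565, plus strand) encodes a relative of biglycan with an aspartate-rich stretch and no glycosaminoglycan chain. It had 11 and 6 reads in WT and a single read in each Haspin-KO library, and did not pass the filter on low counts. The reads pooled over the libraries of a group, scaled by their TMM library sizes, gave a WT to Haspin-KO ratio of 6.21. Its 95% exact interval of 1.47 to 55.4 covers counting error only. Decorin (Dcn, ENSMUSG00000019929, chr10:97479609-97518143, plus strand), the most studied collagen-binding member of the class, had 4 and 2 reads in WT and 0 in both Haspin-KO libraries. These counts are at or around the floor in every library, so no fold change is given for Dcn.

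The class II genes encode proteins whose tyrosine-rich or basic ends bind collagen or heparan sulphate. PRELP (Prelp, ENSMUSG00000041577, chr1:133910304-133921414, minus strand), which links collagen to basement membrane heparan sulphate, had 79 and 47 reads in WT and 1 and 0 in Haspin-KO. Its CPM was 3.62 and 2.71 in WT and 0.0696 and 0.0 in Haspin-KO. The WT libraries were well above the floor and the Haspin-KO libraries were under it. The log2 fold change fitted by edgeR was -6.24 ± 0.67 (SE, adjusted p = 0.00216). Since a single read stood behind the Haspin-KO level, the pooled ratio of 92.1 had an exact 95% counting interval from 16.2 to 3666. The fitted value of Prelp was -8.83 without Haspin-KO replicate 1, which held that read, and -5.38 without Haspin-KO replicate 2, and it was called in both fits.

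Fibromodulin (Fmod, ENSMUSG00000041559, chr1:134037254-134048277, plus strand), which binds collagen and steers its crosslinking, had 23 and 10 reads in WT and 0 in both Haspin-KO libraries. The mean of the WT libraries was 0.815 ± 0.337 CPM (SD, n = 2). This was 3.89 times the level that the floor of 3 reads per library set in Haspin-KO (0.210 CPM on average). Only the Haspin-KO side of this ratio is a bound, and the WT mean carries the counting error of 23 and 10 reads. Fmod did not pass the filter on low counts, and in the edgeR fit without that filter its adjusted p was 0.000337. In that fit the adjusted p was 0.204 for Aspn and 0.44 for Dcn, and DESeq2 gave Fmod no adjusted p. Lumican (Lum, ENSMUSG00000036446, chr10:97565128-97572703, plus strand), a keratan sulphate proteoglycan of cornea and other connective tissue, had 0 reads in all 4 libraries. A count of 0 allows up to 3 reads, or up to 0.0561 and 0.0702 FPKM (reads scaled by exonic length and by library total) in WT and up to 0.0863 and 0.0849 FPKM in Haspin-KO.

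Osteoglycin (Ogn, ENSMUSG00000021390, chr13:49608046-49624501, plus strand), a class III protein also called mimecan, had 18 and 19 reads in WT and 4 and 5 in Haspin-KO. Its CPM of 0.824 and 1.10 in WT and 0.279 and 0.350 in Haspin-KO did not overlap between the groups. The log2 fold change was -1.57 ± 0.51 (SE), and with an edgeR adjusted p of 0.125 Ogn was not called. Unlike Bgn, Prelp, Fmod and Aspn, it was read less in WT replicate 1 than in WT replicate 2, with a CPM ratio of 0.752. With 18 and 19 reads, counting error is large enough that this order may not hold.

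Podocan (Podn, ENSMUSG00000028600, chr4:108014791-108096445, minus strand), a class V protein that binds collagen and restrains smooth muscle cell growth, had 33 and 17 reads in WT and 51 and 21 in Haspin-KO. In CPM this was 1.51 and 0.981 in WT and 3.55 and 1.47 in Haspin-KO, so Haspin-KO replicate 1 was high and Haspin-KO replicate 2 lay between the WT libraries. The log2 fold change was 0.99 ± 0.45 (SE, edgeR adjusted p = 0.246), and the Haspin-KO libraries differed from each other by 2.41 times. A single library decided the value of Podn, since it was 0.22 (adjusted p = 0.874) without Haspin-KO replicate 1 and 1.48 (adjusted p = 0.0182, called higher) without Haspin-KO replicate 2.

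Versican (Vcan, ENSMUSG00000021614, chr13:89655312-89742509, minus strand) was the most deeply read member, with 983 and 743 reads in WT and 827 and 770 in Haspin-KO. Its CPM was 45.0 and 42.9 in WT and 57.6 and 53.9 in Haspin-KO, with means of 43.9 ± 1.51 and 55.8 ± 2.58 (SD, n = 2 each). Both Haspin-KO libraries were above both WT libraries, and the libraries of a group differed by 1.05 times in WT and by 1.07 times in Haspin-KO. The log2 fold change of 0.34 ± 0.09 (SE, 1.27-fold) had an edgeR adjusted p of 0.0784 and was not called.

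**Figure D1:**
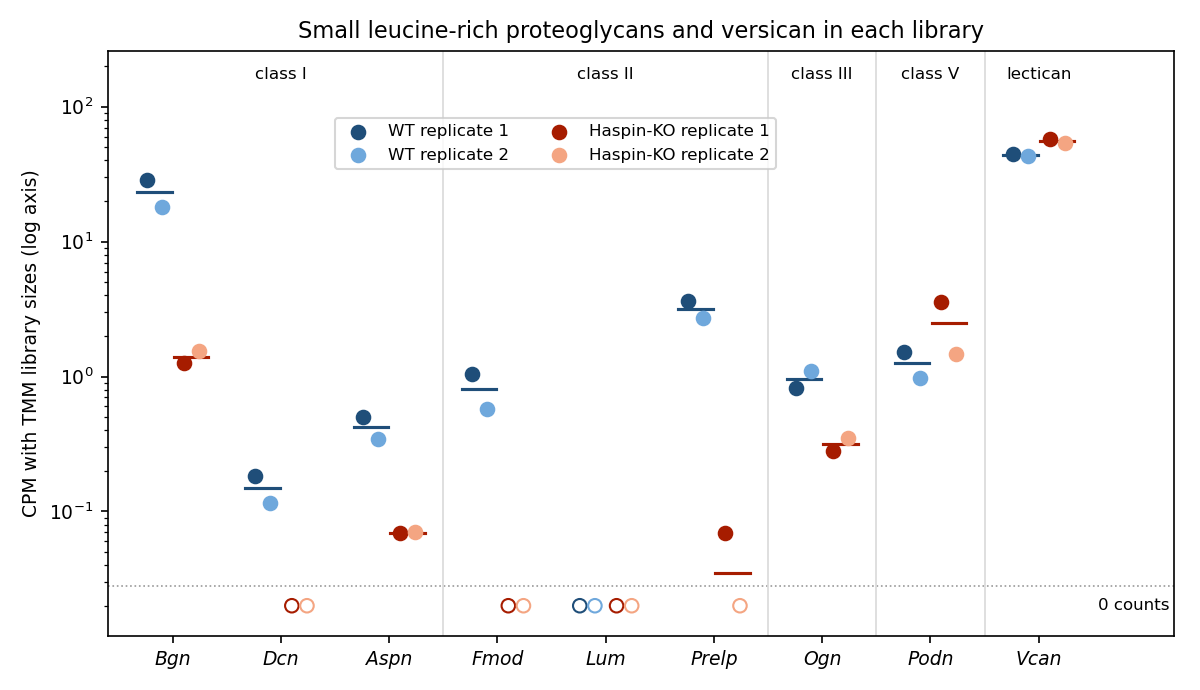
CPM of each gene in each library on a log axis, with TMM library sizes; short lines mark group means and open circles below the dotted line are libraries with 0 reads. Bgn, Prelp, Fmod, Ogn and Aspn were lower in both Haspin-KO libraries, as were 26.9% of all genes tested. Of these members only Bgn and Prelp were called, Ogn was not called, and Fmod and Aspn were not tested. Podn overlapped between the groups, and Vcan, not called, was slightly higher in Haspin-KO at 53.9 and 57.6 CPM.

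RefSeq promoter windows on GRCm38.p6 were matched for 7 of the 9 members, all but Dcn and Lum, and the 250 bases before the RefSeq start are printed for 3 members with few or no reads left in Haspin-KO (Bgn, Prelp and Fmod) and for Vcan, which was well read there. Capitals mark matches on either strand to the motifs searched, which were the TATA box (TATAAA), the CCAAT box (CCAAT), the GC box (GGGCGG), the TEAD core (GGAATG) and the Smad core (CAGAC).
Bgn, chrX:73483351-73483600, plus strand: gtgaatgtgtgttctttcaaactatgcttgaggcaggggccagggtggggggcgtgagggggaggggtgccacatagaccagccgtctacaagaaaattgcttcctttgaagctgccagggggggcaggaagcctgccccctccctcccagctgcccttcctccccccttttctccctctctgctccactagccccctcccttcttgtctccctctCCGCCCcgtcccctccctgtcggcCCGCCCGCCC
Prelp, chr1:133921402-133921651, minus strand: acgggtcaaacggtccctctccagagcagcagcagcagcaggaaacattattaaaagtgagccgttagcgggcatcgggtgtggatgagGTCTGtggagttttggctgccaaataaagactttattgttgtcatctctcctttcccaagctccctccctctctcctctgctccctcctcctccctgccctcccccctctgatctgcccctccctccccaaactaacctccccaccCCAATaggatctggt
Fmod, chr1:134037004-134037253, plus strand: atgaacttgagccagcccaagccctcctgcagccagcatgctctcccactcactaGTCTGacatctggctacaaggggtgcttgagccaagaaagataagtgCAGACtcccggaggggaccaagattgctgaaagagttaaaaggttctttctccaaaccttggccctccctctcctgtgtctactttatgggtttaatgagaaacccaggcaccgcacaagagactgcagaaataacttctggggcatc
Vcan, chr13:89742513-89742762, minus strand: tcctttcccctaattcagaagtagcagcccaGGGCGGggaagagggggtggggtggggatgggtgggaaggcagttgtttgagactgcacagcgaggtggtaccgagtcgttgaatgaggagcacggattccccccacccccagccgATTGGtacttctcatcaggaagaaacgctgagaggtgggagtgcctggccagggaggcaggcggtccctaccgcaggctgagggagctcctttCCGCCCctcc
The Bgn window held 3 GC boxes, of which the last pair overlapped, and Vcan held 2 GC boxes and 1 CCAAT box. Prelp held 1 CCAAT box and 1 Smad core, and Fmod held 2 Smad cores. Neither a TATA box nor a TEAD core was found in these 4 windows. Aspn and Ogn also had few reads left in Haspin-KO, and their windows are not printed. The Aspn window held 2 TATA boxes and 1 CCAAT box, and the Ogn window held 2 overlapping TATA boxes and 1 TEAD core. The Podn windows held neither a TATA box nor a TEAD core. Across all 32851 windows of the same length, 32.7% held a GC box, 33.8% a CCAAT box, 42.2% a Smad core, 12.4% a TATA box and 12.6% a TEAD core. GC content was 64.4% in the Bgn window, 55.6% for Prelp, 51.2% for Fmod and 62.4% for Vcan. No motif was present in all of the Bgn, Prelp and Fmod windows, and a match is a description of the letters only.

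Levels of different genes were compared per exonic length, in FPKM. In WT, Bgn had the highest level at 3.80 ± 1.22 FPKM (SD, n = 2), followed by Vcan at 3.03 ± 0.12, and the libraries of these neighbours overlapped. Prelp came next at 0.873 ± 0.181 FPKM, apart from the genes on either side of it. Ogn (0.373 ± 0.0728), Podn (0.291 ± 0.089), Fmod (0.246 ± 0.103) and Aspn (0.180 ± 0.0481) formed a run in which each neighbour overlapped the next, and Dcn stood under them at 0.0255 ± 0.00831 FPKM. In Haspin-KO the order was headed by Vcan at 3.86 ± 0.238 FPKM, and Podn came next at 0.591 ± 0.354. Bgn followed at 0.229 ± 0.0298 FPKM, and although its libraries lay under both Podn libraries, the gap between the means was smaller than the sum of their SDs. Ogn had 0.122 ± 0.0179 FPKM, Aspn 0.0297 and Prelp 0.00973, and Dcn, Lum and Fmod were at 0. The level of Vcan per length was 0.668 and 1.00 times that of Bgn in the WT libraries and 19.4 and 14.8 times in the Haspin-KO libraries.

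Most of the small leucine-rich proteoglycan genes lie in short chromosomal runs, and neighbours differed in how many reads they had. On chromosome 1, Prelp lay 2.30 kb from Optc and 116 kb from Fmod. Optc, which encodes opticin of the eye's vitreous, had 1 read in each WT library and 2 and 1 reads in Haspin-KO, next to the 79 and 47 WT reads of Prelp. On chromosome 10, Dcn, Lum, Kera and Epyc followed each other, with 47.0 kb between Dcn and Lum. Kera and Epyc, which encode the keratocan of cornea and the epiphycan of growth cartilage, had 0 reads in all libraries, as Lum did. On chromosome 13, the run comprised Ecm2, Aspn, Omd and Ogn, with 40.5 kb between Aspn and Ogn. Ecm2, a leucine-rich matrix protein, had 10 and 9 reads in WT and 15 and 11 in Haspin-KO, while Aspn, 11.7 kb away, had 11 and 6 in WT and 1 and 1 in Haspin-KO. Omd, which encodes osteomodulin, had 4 reads in each WT library and 3 and 1 in Haspin-KO.

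**Figure D2:**
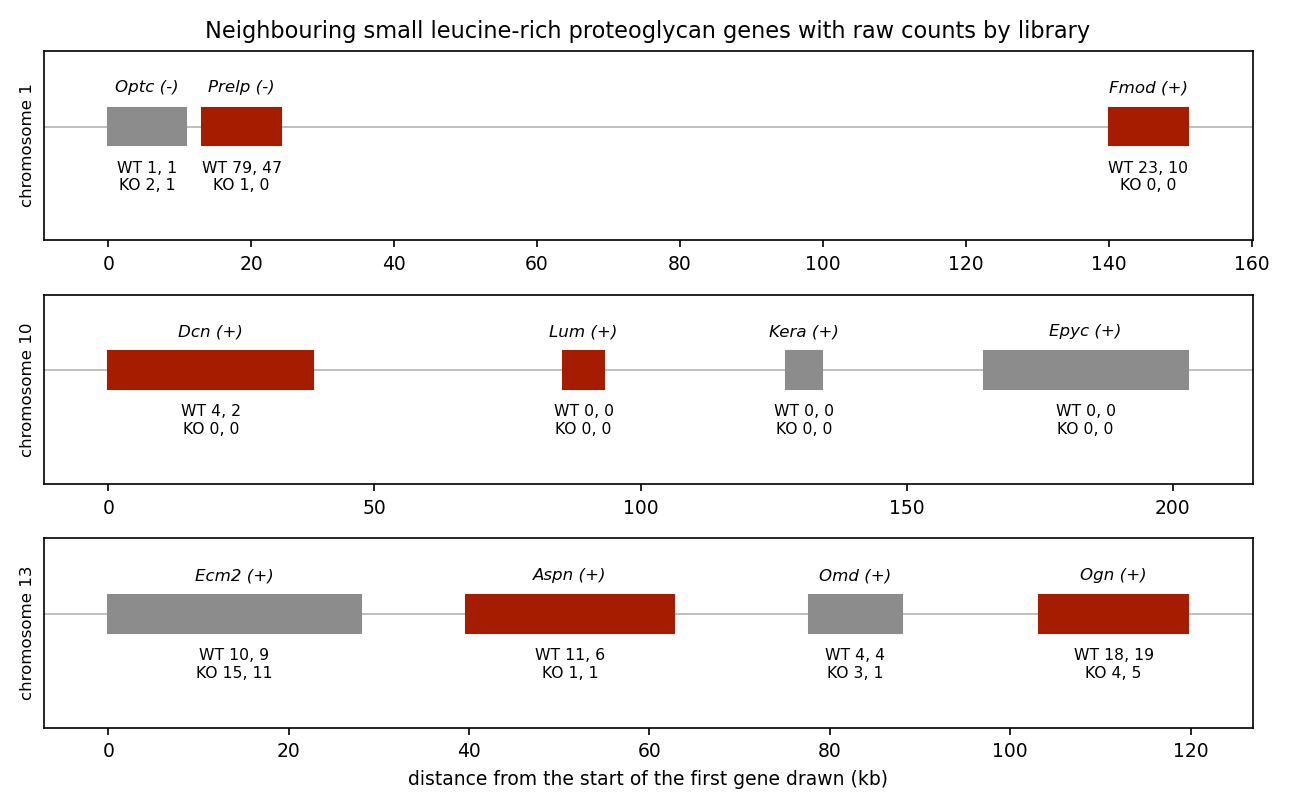
Runs of neighbouring small leucine-rich proteoglycan genes on chromosomes 1, 10 and 13, drawn to scale with distance in kb from the first gene; red boxes are members, grey boxes other genes of the family, signs give the strand, and the counts are raw reads in replicates 1 and 2 of WT and Haspin-KO. Prelp, Fmod and Aspn had 0 or 1 reads in each Haspin-KO library, while Ecm2 had 15 and 11.

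Several members overlap other genes in the GENCODE vM21 annotation of GRCm38, whose exonic lengths were identical to those deposited for all 9 members. Aspn and Ogn lie inside Cenpp, a centromere protein gene on the opposite strand, with which they share 7 and 0 exonic bases. Cenpp had 405 and 289 reads in WT and 328 and 295 in Haspin-KO, a log2 fold change of 0.30 ± 0.13 (SE, edgeR adjusted p = 0.216). Its difference was thus small and above 0, where those of Aspn and Ogn were below 0. Podn overlaps Scp2, which encodes a sterol carrier protein, on the same strand without shared exonic bases, and Scp2 had a log2 fold change of -0.18 ± 0.086 (SE, adjusted p = 0.259). Prelp shares 350 exonic bases with the antisense gene Gm15851, which had 0 reads in every library. The strand setting of the counting is not given in the sources used here, so reads of a gene and its antisense partner cannot be told apart. The few reads of Aspn and Ogn are therefore uncertain in origin.

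For each member with at least 10 reads in every WT library, the 3 genes with the most similar pattern were taken from 15042 tested genes, by the root-mean-square difference of centred log2 CPM over the 4 libraries. Nearest to Bgn were Prss23 (difference 0.0596), Postn (0.093) and Loxl2 (0.118). Postn, which encodes periostin, had 171 and 77 reads in WT and 0 in both Haspin-KO libraries. Nearest to Prelp were Col5a2 (0.0614), Col8a1 (0.0757) and Thbs2 (0.161), and Col5a2 had 781 and 427 reads in WT and 62 and 53 in Haspin-KO. Those of Fmod were Cthrc1 (0.038), Actg2 (0.0755) and Tgfb3 (0.113), with 29 and 14 reads of Cthrc1 in WT and 1 and 1 in Haspin-KO. The measure adds 0.5 to the CPM, so genes with few reads in Haspin-KO are drawn together by it. It also shrinks the differences of genes with low CPM, so a near pattern does not mean a like fold change. The fitted log2 fold change was -2.91 for Col5a2 beside -6.24 for Prelp, and -7.11 for Prss23 beside -4.05 for Bgn. Ogn was matched by D030062O11Rik (0.0321), Ldhb (0.0442) and Dpm3 (0.0556), and Podn by Gm1995 (0.0658), Arhgef33 (0.0782) and Amz1 (0.0889). Vcan lay closest to Wnt6 (0.00811), Adam10 (0.0109) and Gm38102 (0.0111), and Adam10 had 1195 and 895 reads in WT and 991 and 941 in Haspin-KO.

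Of 10 further genes of the small leucine-rich proteoglycan family 4 were tested, none was called, and their median log2 fold change was 0.061, against -0.0039 over all genes tested. Tsku, which encodes the secreted BMP and Wnt modulator tsukushi, had the highest counts of these, with 184 and 99 reads in WT and 137 and 105 in Haspin-KO (log2 fold change 0.25 ± 0.23, SE, edgeR adjusted p = 0.575). The chondroadherin-like gene Chadl had 57 and 39 reads in WT and 26 and 38 in Haspin-KO.

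Of 32 hyaluronan-binding and other proteoglycans 26 were tested, 2 were called lower and 0 higher, and the median log2 fold change was 0.053. Over all genes tested 0.501% were called lower and 0.327% higher, and these shares stand beside the counts called in each list below. Both Haspin-KO libraries lay below both WT libraries for 7 of the 26 and above them for 7. These counts were near the shares over all genes tested, 26.9% below and 25.3% above. Cd44, the hyaluronan receptor of the cell surface, had 161 and 96 reads in WT and 25 and 5 in Haspin-KO, a log2 fold change of -2.62 ± 0.46 (SE, edgeR adjusted p = 0.0216). Cspg4, the membrane proteoglycan NG2 of pericytes and glial precursors, had 26 and 14 reads in WT and 2 and 0 in Haspin-KO (adjusted p = 0.046). The basement membrane proteoglycans perlecan (Hspg2) and agrin (Agrn), with the highest counts of the list, were not called, at log2 fold changes of 0.15 ± 0.073 and 0.22 ± 0.068 (SE, adjusted p = 0.273 and 0.115). The enzymes that build and modify glycosaminoglycan chains had no called gene among 24 tested of 27, with a median of -0.0047. Dse, the epimerase that turns chondroitin into dermatan sulphate, had the highest counts of these, with 2371 and 1872 reads in WT and 1653 and 1729 in Haspin-KO (log2 fold change 0.13 ± 0.076, SE, adjusted p = 0.377).

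Among proteases that cleave versican or biglycan and their helpers, 10 of 11 genes were tested, 2 were called lower and 0 higher, and the median log2 fold change was -0.12. Adamts5, a versican- and aggrecan-cleaving protease, had 46 and 53 reads in WT and 3 and 6 in Haspin-KO (log2 fold change -3.00 ± 0.47, SE, edgeR adjusted p = 0.0152). Adamts1, of the same family, had 30 and 21 reads in WT and 0 and 3 in Haspin-KO (adjusted p = 0.0388). Adamts9, also a versicanase, was read most of the family here, with 1268 and 1022 reads in WT and 854 and 841 in Haspin-KO, and its log2 fold change was 0.017 ± 0.083 (SE, adjusted p = 0.936). Pcolce, which speeds procollagen processing, had 3648 and 2759 reads in WT and 1840 and 1886 in Haspin-KO and was not called, at -0.33 ± 0.074 (SE, adjusted p = 0.0529).

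Of 22 partners and receptors 17 were tested, 3 were called lower and 0 higher, and the median log2 fold change was -0.10. Tnc, the matrix glycoprotein tenascin C that binds the versican family, had 494 and 303 reads in WT and 3 in each Haspin-KO library (edgeR adjusted p = 1.7e-05). Fbln2, a fibulin that binds versican's lectin domain, had 808 and 429 reads in WT and 19 and 8 in Haspin-KO, a log2 fold change of -5.03 ± 0.32 (SE, adjusted p = 9.5e-05). Tgfb3, a growth factor ligand bound by several small leucine-rich proteoglycans, had 22 and 13 reads in WT and 1 and 0 in Haspin-KO (adjusted p = 0.0329). Fn1, which encodes fibronectin, was the most read partner, at 33540 and 28882 reads in WT and 23385 and 23105 in Haspin-KO (log2 fold change 0.02 ± 0.069, SE, adjusted p = 0.901). The partners thus held both genes that were almost unread in Haspin-KO and abundant matrix genes with a difference near 0.

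**Figure D3:**
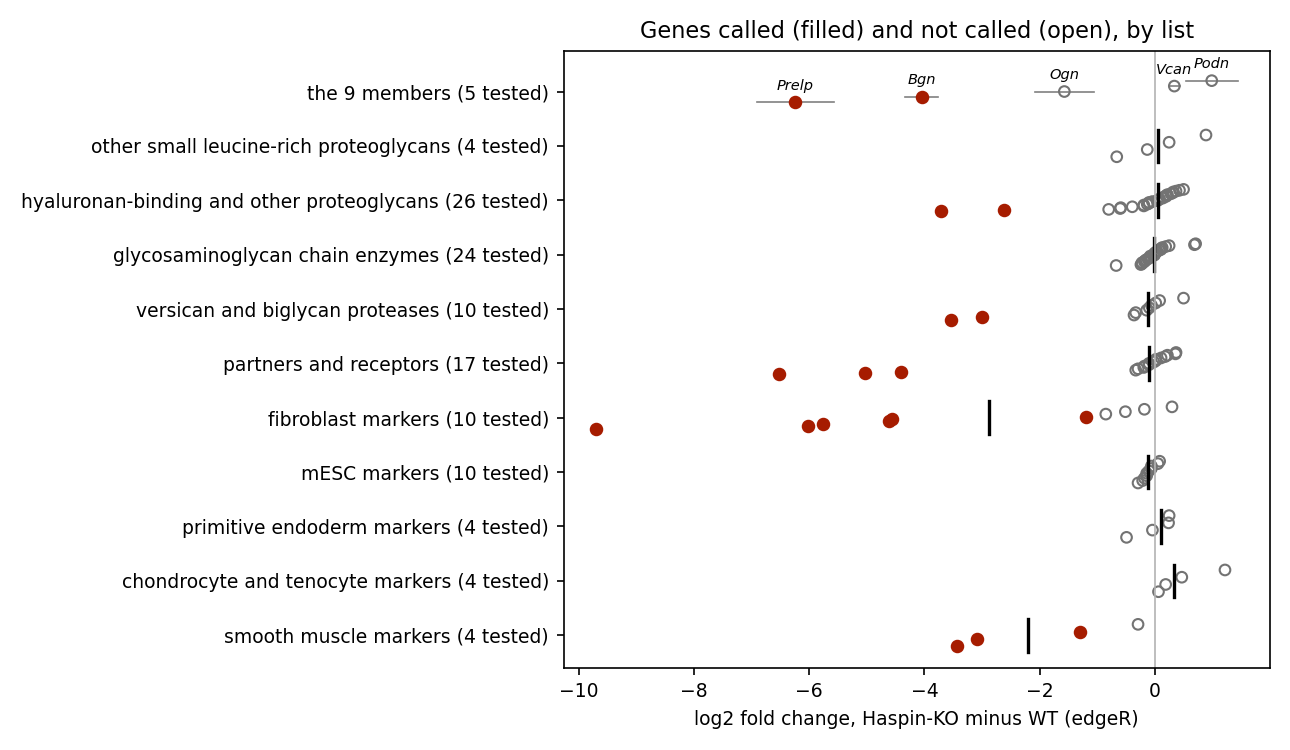
Log2 fold change (Haspin-KO minus WT, edgeR) of each tested gene, by list; filled points were called, open points were not, black lines are list medians, and bars on the members are SEs. Bgn (-4.05) and Prelp (-6.24) were called lower, the fitted value farthest to the left is Postn, which had 0 reads in Haspin-KO and whose fitted size is no bound, and the medians of the fibroblast and smooth muscle lists were -2.88 and -2.19.

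The markers fixed for mESCs were all read and called in neither direction, with 10 of 10 tested, a median log2 fold change of -0.12 and summed levels of 3582 and 3667 FPKM in WT and 3305 and 3264 in Haspin-KO. Of 12 fibroblast markers 10 were tested, 6 were called lower, as Bgn and Prelp were, 4 were not called and 0 were higher, the median log2 fold change was -2.88, and their summed level was 20.0 and 15.4 FPKM in WT and 6.05 and 5.12 in Haspin-KO. Col1a1, the chain of fibrillar collagen I, had 1063 and 575 reads in WT and 24 in each Haspin-KO library (log2 fold change -4.61 ± 0.24, SE, edgeR adjusted p = 2.1e-05). Col1a2 had 645 and 419 reads in WT and 7 and 7 in Haspin-KO, and the mesenchymal factor Prrx1 had 40 and 31 in WT and 2 and 0 in Haspin-KO. Col3a1, Postn and Tbx15 were the other markers called lower. Pdgfra (39 and 30 reads in WT, 46 and 16 in Haspin-KO), Thy1 and Twist1 were not called, at log2 fold changes of 0.30, -0.51 and -0.18, Pdgfrb missed the fold minimum at -0.85 ± 0.18 (SE, adjusted p = 0.0392), and Fap and Twist2 were at or under the floor in every library. The fibroblast proteoglycans Dcn and Lum were themselves at most at 4 reads in WT, where Bgn had 621 and 312. The level of Bgn per 100 of Col1a1, both per length, was 62.9 and 58.4 in the WT libraries and 80.7 and 98.6 in the Haspin-KO libraries. The Haspin-KO values rest on 18 and 22 reads of Bgn and 24 in each library of Col1a1. Their counting error is large, and a difference from WT was not tested. The CPM ratio of WT replicate 1 to WT replicate 2 had a median of 1.22 over the 10 fibroblast markers tested (0.909 to 1.76). Over the 6 called lower the median was 1.3, and over all genes tested it was 1.00. For the members this ratio was 1.58 for Bgn, 1.33 for Prelp, 1.83 for Fmod, 1.45 for Aspn, 1.54 for Podn, 1.05 for Vcan and 0.752 for Ogn. The ratios of Fmod, Aspn and Ogn rest on at most 23 reads in a library. Some genes of other lists had ratios above these, for example Scx (1.98, from 30 and 12 reads) and Gata6 (2.85, from 61 and 17). The part of fibroblast RNA in the lower levels of Bgn, Prelp and Fmod was not tested.

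**Figure D4:**
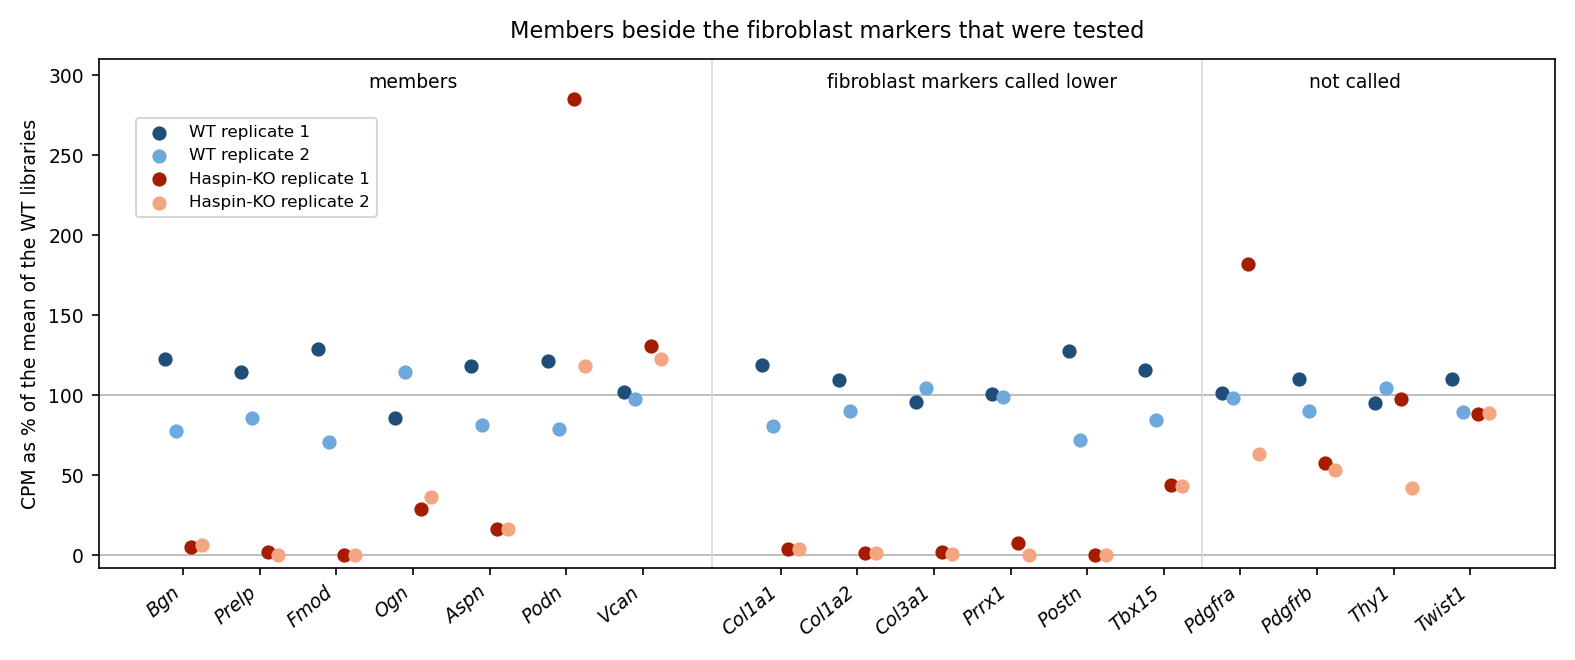
CPM in each library as a percent of the mean of the WT libraries, for the 7 members other than Dcn and Lum and for the 10 fibroblast markers tested; each point is a library. Bgn, Prelp and Fmod lay near 0 in both Haspin-KO libraries, as 5 of the 10 markers did, while Tbx15 and the 4 markers not called (Pdgfra, Pdgfrb, Thy1 and Twist1) did not, and Vcan lay above 100%.

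Of 4 smooth muscle genes 3 were called lower (Acta2, Tagln and Cnn1), and the median log2 fold change was -2.19. Myh11 was not called, at -0.29 ± 0.54 (SE, edgeR adjusted p = 0.803). It had 28 and 8 reads in WT and 9 and 12 in Haspin-KO, so the groups overlapped. Acta2, the smooth muscle actin that myofibroblasts also make, had 1215 and 716 reads in WT and 44 and 85 in Haspin-KO (log2 fold change -3.43 ± 0.25, SE, edgeR adjusted p = 0.000183), and the summed level of the list was 29.8 and 21.7 FPKM in WT and 2.69 and 4.01 in Haspin-KO. Markers of chondrocytes and tenocytes, which also make small leucine-rich proteoglycans, had no call among 4 tested of 6, with a median of 0.33 and a summed level of 2.16 and 1.71 FPKM in WT and 3.90 and 2.52 in Haspin-KO, and the cartilage transcription factor Sox9 had at most 4 reads in any library. The tested chondrocyte and tenocyte markers lay at log2 fold changes of 0.065 to 1.22. Matn1 was the highest (1.22 ± 0.30, SE, edgeR adjusted p = 0.0656). It had 35 and 26 reads in WT and 61 and 43 in Haspin-KO. Primitive endoderm markers had no call among 4 tested of 5, with a median of 0.10. The part of these cell types in the levels of the members was not tested.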

How the data were processed

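Reads of the 4 libraries were processed by the authors, whose notes list Cutadapt (1.9.1), HISAT2 (2.0.1), HTSeq (0.6.1, with no role stated), DESeq2 and mm10. The authors deposited raw counts per gene without normalization, and FPKM, which was recomputed here from the deposited counts, exonic lengths and library totals within rounding. The annotation release and strand setting are not given in the sources used here.

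Haspin-KO was compared with WT on the counts of all genes with edgeR (4.0.16, R 4.3.3), with filterByExpr, TMM scaling and quasi-likelihood F-tests and no block, and p-values were Benjamini-Hochberg adjusted over 15580 genes. Calls needed an adjusted p under 0.05 and a difference of more than 2-fold. An exact permutation test of 2 against 2 libraries cannot give a p under 0.333, so none was run. CPM used TMM library sizes, and SDs are over 2 libraries. Pooled ratios carry exact 95% binomial intervals. Alternatives were DESeq2 (1.42.0), limma (3.58.1) on log2(FPKM + 0.1) where 2 libraries reached 0.5 FPKM, other scalings, filters and thresholds, thinning, a replicate block, and leaving out each library. The fits were tested on simulated data.

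The members, lists and motifs were chosen with earlier results of these data known. Named genes were the members, Haspin, the called genes of each list and up to 5 of its most read genes, and the 3 nearest patterns of each member. Genes of Podn's, Prelp's, Aspn's and Ogn's surroundings and family genes near the floor were named after their values were seen. Gene positions are those of the deposited table (mm10), and overlaps come from GENCODE vM21. Promoter windows are from RefSeq (GRCm38.p6).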

Additional observations from a re-analysis of the deposited data

How the results depend on the processing

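Bgn and Prelp kept their direction under every alternative that gave them a value. Bgn was called at log2 fold changes of -4.34 to -3.68 in the edgeR and DESeq2 fits. In limma on log2(FPKM + 0.1), log2(FPKM + 1) or without a filter, 0 members and 0 and 0 genes were called lower and higher, with Bgn at -3.53, -1.94 and -3.53 (adjusted p = 0.094, 0.0988 and 0.264) and Prelp at -3.13, -0.89 and -3.13 (0.123, 0.115 and 0.264), and 383 genes with a fold over 2, Bgn and Prelp among them, had an unadjusted p under 0.05 in the first of these. DESeq2 called 1 member and 42 genes lower and 47 genes higher, and gave Prelp no adjusted p. At least 10 counts in every library left 1 member, Bgn, and 36 genes called lower and 52 higher, since Prelp was not tested. In both, more genes were higher than lower, against 51 higher and 78 lower in edgeR. Without a filter 140 genes were called lower and 125 higher, Fmod among the former. Without a fold minimum 236 were lower and 154 higher, and at an adjusted p under 0.01 39 and 17.

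Leaving out a library, where the lone library was assumed to vary like the other group, gave 2 to 3 members and 37 to 150 genes called lower and 0 to 1 members and 17 to 157 genes called higher. The additional member called lower was Fmod without either Haspin-KO library, and the member called higher was Podn without Haspin-KO replicate 2. The cause of these differences was not tested.

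With the replicate block, 167 genes were called lower and 240 higher, and Ogn joined the members called lower (-1.59, adjusted p = 0.0279). Vcan had an adjusted p of 0.000254 with a fold under 2. The numbers are shared labels only, as nothing says that libraries of a number were prepared together, and replicate differences of WT and Haspin-KO correlated at r = 0.338 across 15580 genes. Podn had an adjusted p of 0.0177 at 1.00, just short of 2-fold, and no other call of a member changed. Depth limits Dcn, Lum, Aspn and Fmod, which had at most 23 reads in any library.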
